A study of Mus musculus with 9 samples.

Results

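The transcripts described here are those of 33 mouse genes that move glucose and lactate across the plasma membrane, carry out glycolysis, or answer to low oxygen through hypoxia-inducible factor (HIF). They were chosen by listed gene symbol, and all 33 had a row in the deposited table of 23936 named genes. The table gives FPKM, that is, sequenced fragments divided by the length of the transcript and by the size of the library, so levels of different genes can be set side by side per length. It covers 9 RNA-sequencing libraries of OT-I cells, which are mouse CD8 T cells carrying a transgenic receptor for a peptide of ovalbumin, so that the cells of every group share 1 receptor. The 3 libraries of MLN-primed cells came from the MLN and carry the word oral in their titles, the 3 of spleen-primed cells came from the spleen and carry iv, and the 3 of naive cells came from the spleen. Organ and title word thus changed together between the primed groups and cannot be told apart. Organ and priming likewise changed together between MLN-primed and naive cells, while spleen-primed and naive cells share the organ. The labels used here give no gate, no age of the animals, no time after priming and no priming agent. They do not say whether libraries of a group came from separate animals, and p-values then measure only how these libraries vary, which may be technical variation.

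Glycolysis splits glucose into pyruvate in a chain of cytosolic enzymes. Dividing T cells run it fast even when oxygen is present, and export much of the pyruvate as lactate. HIF is a transcription factor whose alpha subunit is marked for destruction by prolyl hydroxylases and the Vhl ubiquitin ligase while oxygen is plentiful. HIF is stable in low oxygen and also after T cell receptor signalling. It then raises transcription of glycolytic enzymes, of transporters, of a kinase that limits the use of pyruvate in mitochondria, and of genes of mitophagy.

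HIF binds DNA at the hypoxia response core, spelled ACGTG or GCGTG and read here on both strands, where it appears as CACGT or CACGC on the other strand. The E-box CACGTG, a site of Myc and other factors, contains ACGTG on both strands, so every E-box also counts as a core. Promoter windows of 250 bases before the transcription start were available from RefSeq (GRCm38.p6, the assembly also called mm10) for 31 of the 33 genes, in 44 windows. The core was present in 36 of the 44 windows (81.8%), against 57.4% of 10436 windows of the genes tested below and 38.6% of all 32851 windows of the table. The E-box was present in 13.6% of the members' windows, 8.68% of windows of tested genes and 6.02% of all windows. The median GC content was 62.4%, 60.0% and 52.4% in the same order. Since the genes were listed as glycolysis and HIF genes, this share describes the list and is not a result. A match is only a run of letters, and its absence says only that these letters are not in that window.

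Windows of 8 genes are printed because these genes carry the main expression patterns below, and they were chosen with those values known. Pgk1, Pgam1, Ldha, Tpi1 and Slc16a3 were higher in both primed groups than in naive cells and highest in MLN-primed cells. Pdk1, Egln3 and Bnip3 were lower in both primed groups than in naive cells, yet higher in MLN-primed than spleen-primed cells. Both kinds include windows with the core. Tpi1 has none in its window, and its change between the primed groups was the largest of the tested members on the log2(FPKM + 1) scale. By the ratio of mean FPKM, Egln3, whose window has a core, differed more, at 2.37 against 1.92 for Tpi1. Each window is written 5′ to 3′ along the gene, ends at the base before the start site, and has the core in capitals on either strand. Where several windows were available for a gene, as for Ldha and Pdk1, the window listed first is shown. The printed windows of Ldha and Slc16a3 lie inside the annotated span of the gene, so they do not precede its outermost start. Pgk1 is chrX:106186850-106187099 on the plus strand, Pgam1 chr19:41911621-41911870 on the plus strand, Ldha chr7:46845554-46845803 on the plus strand and Tpi1 chr6:124814159-124814408 on the minus strand. Slc16a3 is chr11:120948817-120949066 on the plus strand, Pdk1 chr2:71872974-71873223 on the plus strand, Egln3 chr12:54203875-54204124 on the minus strand and Bnip3 chr7:138909507-138909756 on the minus strand.
Pgk1: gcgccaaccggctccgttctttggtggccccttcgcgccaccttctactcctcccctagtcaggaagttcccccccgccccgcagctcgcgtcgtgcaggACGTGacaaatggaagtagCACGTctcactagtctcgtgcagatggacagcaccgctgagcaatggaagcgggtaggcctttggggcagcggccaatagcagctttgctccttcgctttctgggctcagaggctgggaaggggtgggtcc
Pgam1: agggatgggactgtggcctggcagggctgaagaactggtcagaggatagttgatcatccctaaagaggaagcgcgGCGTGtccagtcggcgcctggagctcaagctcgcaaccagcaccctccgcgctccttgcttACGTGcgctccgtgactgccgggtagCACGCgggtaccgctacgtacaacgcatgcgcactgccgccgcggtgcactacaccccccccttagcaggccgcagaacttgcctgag
Ldha: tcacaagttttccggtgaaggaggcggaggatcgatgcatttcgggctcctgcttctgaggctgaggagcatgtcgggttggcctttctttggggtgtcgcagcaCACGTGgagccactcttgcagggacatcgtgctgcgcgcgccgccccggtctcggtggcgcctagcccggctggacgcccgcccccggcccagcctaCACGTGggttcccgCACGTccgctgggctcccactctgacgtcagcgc
Tpi1: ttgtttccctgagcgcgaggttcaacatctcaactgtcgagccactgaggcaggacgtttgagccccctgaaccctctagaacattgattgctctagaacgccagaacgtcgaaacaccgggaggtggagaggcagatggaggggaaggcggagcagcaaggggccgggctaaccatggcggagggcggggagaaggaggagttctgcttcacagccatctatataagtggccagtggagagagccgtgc
Slc16a3: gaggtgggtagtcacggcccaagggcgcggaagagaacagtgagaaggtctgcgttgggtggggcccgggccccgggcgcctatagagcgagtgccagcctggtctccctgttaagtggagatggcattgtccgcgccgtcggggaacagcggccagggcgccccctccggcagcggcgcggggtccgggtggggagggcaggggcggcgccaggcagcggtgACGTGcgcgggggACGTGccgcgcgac
Pdk1: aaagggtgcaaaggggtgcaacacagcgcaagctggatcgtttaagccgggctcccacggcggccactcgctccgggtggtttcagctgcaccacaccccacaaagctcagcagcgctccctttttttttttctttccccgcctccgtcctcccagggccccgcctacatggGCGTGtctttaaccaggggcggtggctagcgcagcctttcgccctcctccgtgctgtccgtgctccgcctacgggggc
Egln3: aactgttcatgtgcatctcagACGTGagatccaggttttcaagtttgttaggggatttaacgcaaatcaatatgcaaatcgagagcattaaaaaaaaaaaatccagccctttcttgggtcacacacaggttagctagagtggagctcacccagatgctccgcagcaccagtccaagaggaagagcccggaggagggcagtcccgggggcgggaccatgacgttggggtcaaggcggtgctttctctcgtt
Bnip3: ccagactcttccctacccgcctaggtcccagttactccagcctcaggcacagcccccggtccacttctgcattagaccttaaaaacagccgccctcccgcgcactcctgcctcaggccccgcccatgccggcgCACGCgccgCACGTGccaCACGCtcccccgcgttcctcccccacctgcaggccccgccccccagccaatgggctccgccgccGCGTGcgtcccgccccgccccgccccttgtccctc
The Ldha window holds 5 matches, 4 of which come from its 2 E-boxes, and the Bnip3 window also holds 5, 2 of them in an E-box. The Pgam1 window has 3 matches, the Pgk1 and Slc16a3 windows have 2 each, and those of Pdk1 and Egln3 have 1 each.

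A library held 613322 to 720410 FPKM in all and 9469 to 9667 genes at 1 FPKM or more. Read depth is not given by FPKM, so no counting error can be attached. Relative to their own groups, MLN-primed 1 and spleen-primed 3 had the outermost trends with transcript length, at -0.0896 and 0.0787 on the log2 scale per doubling of length, and results that rest on them are given without them. The summed FPKM of 10 CD8 T cell markers was 2149 to 2243 in MLN-primed, 3132 to 3206 in spleen-primed and 3907 to 4299 in naive libraries. Cd8b1, the most abundant, was at means of 601, 861 and 1252 FPKM, and Cd8a, Cd3d, Cd3e, Cd3g, Cd2 and Cd27 had means in the same order. Lck, at 389, 511 and 391 FPKM, Cd5, at 124, 136 and 120 FPKM, and Cd28, at 38.4, 51.4 and 44.1 FPKM, were instead highest in spleen-primed cells. Markers of dendritic cells and MHC class II summed to 3.44 to 4.40, 3.47 to 7.86 and 94.0 to 166 FPKM in these groups. Stromal and endothelial markers, 7 of 10 under 0.1 FPKM everywhere, summed to 2.58 to 3.70, 3.27 to 4.57 and 37.5 to 44.1 FPKM. Most of that was Pecam1, at means of 2.54, 3.64 and 39.4 FPKM in the same order. Pdgfrb, at 0.0170, 0.00705 and 0.443 FPKM, was also highest in naive cells, and Cdh5, at 0.640, 0.350 and 0.0563 FPKM, was lowest there. Myeloid markers summed to 17.4 to 20.1 FPKM in MLN-primed, 47.1 to 50.3 FPKM in spleen-primed and 7.24 to 49.2 FPKM in naive libraries. Most of the primed sums came from Itgam, at means of 9.30, 30.3 and 0.326 FPKM in MLN-primed, spleen-primed and naive cells, and Cd68, at 7.69, 15.6 and 1.06 FPKM, whereas Lyz2, at 0.170, 0.863 and 5.79 FPKM, and S100a8, at 0, 0.102 and 11.2 FPKM, were highest in naive cells. Of B cell markers, 7 summed to 11.3 to 14.5 FPKM in MLN-primed, 6.51 to 8.29 FPKM in spleen-primed and 11.2 to 14.9 FPKM in naive libraries, most of it Cd79b, with Ebf1 and Cr2 under 0.1 FPKM everywhere. Epithelial markers summed to 1.51 to 1.98, 0.885 to 1.02 and 0.856 to 1.23 FPKM in MLN-primed, spleen-primed and naive libraries. The sums of these lists differ between the groups, and their part in the values below was not tested.

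A gene entered the tests if 3 or more libraries had 1 FPKM or more of it, which 10185 genes did. They were tested with limma on log2(FPKM + 1) and Benjamini-Hochberg adjustment over all of them. Of the 33 members, 32 met this filter. Aldoc, an aldolase best known from brain, lay at 0.326 to 0.652 FPKM in all libraries and was not tested. Slc16a3 and Hk2 met it only through the primed groups and Pfkfb4 only through the naive group, so their differences from the other side follow in part from the filter. Members are therefore counted against all 33 and no support is drawn from the share that passed. All log2 changes are changes of log2(FPKM + 1), given ± SE, and changes of genes near or below 1 FPKM are understated on that scale.

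Between the primed groups, 17 of the 33 members were higher and 3 were lower in MLN-primed than spleen-primed cells (adjusted p below 0.05), 12 did not pass and 1 was not tested. Over all tested genes, 17.3% were higher and 13.1% lower. The median log2 change of the tested members was 0.34, against 0.03 over all tested genes. In MLN-primed against naive cells 19 members were higher and 7 lower, against 45.5% and 33.2% of all tested genes. For spleen-primed against naive cells the members' counts were 20 and 8, against 43.1% and 32.7%. The members' median changes were 0.94 for MLN-primed and 0.60 for spleen-primed cells against naive cells, beside 0.15 and 0.10 over all genes. Both comparisons with naive cells use the same naive libraries. In bulk RNA a different share of cells with a transcript and a different amount of it per cell cannot be told apart.

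Comparisons with naive cells depend in part on scaling. Median-of-ratios scaling moved the median change of all genes to -0.01 in both of them, and quantile normalisation to -0.04 for MLN-primed and -0.07 for spleen-primed cells. Over all genes, calls in spleen-primed against naive cells were 4387 higher and 3331 lower as deposited, and 3545 higher and 4070 lower after quantile normalisation. The balance between the primed groups moved too, from 1760 higher and 1333 lower in MLN-primed cells as deposited. It was 1458 and 1570 under median-of-ratios scaling, and 1553 and 1461 under quantile normalisation, with 15 members higher and 3 lower in each. Against naive cells the members' counts of higher genes stayed within 1.5 times of those given, at 18 to 20 higher in MLN-primed and 19 to 22 higher in spleen-primed cells, under every alternative tried. The counts of lower members were 4 to 8 and 5 to 10, with the lowest under a filter of 5 FPKM.

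The 33 genes together held 1.37 ± 0.0109% of all FPKM in MLN-primed, 0.985 ± 0.0132% in spleen-primed and 0.315 ± 0.0144% in naive cells (SD, n = 3). Their part of the measured transcripts thus differed between all groups without overlap, and the 7 genes of lower glycolysis accounted for most of it, with 0.943 ± 0.0157%, 0.666 ± 0.0114% and 0.161 ± 0.00627% in the same order. Members took different paths across the 3 groups. 12 of them rose in both primed groups and were highest in MLN-primed cells: Slc16a3, Hk2, Pfkl, Aldoa, Tpi1, Gapdh, Pgk1, Pgam1, Eno1, Pkm, Ldha and Ero1l. 6 rose against naive cells in both primed groups with no call between those groups, namely Slc2a1, Slc16a1, Gpi1, Pfkp, Pdk3 and Hif1a. The heat map of the members shows these paths library by library.

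**Figure D1:**
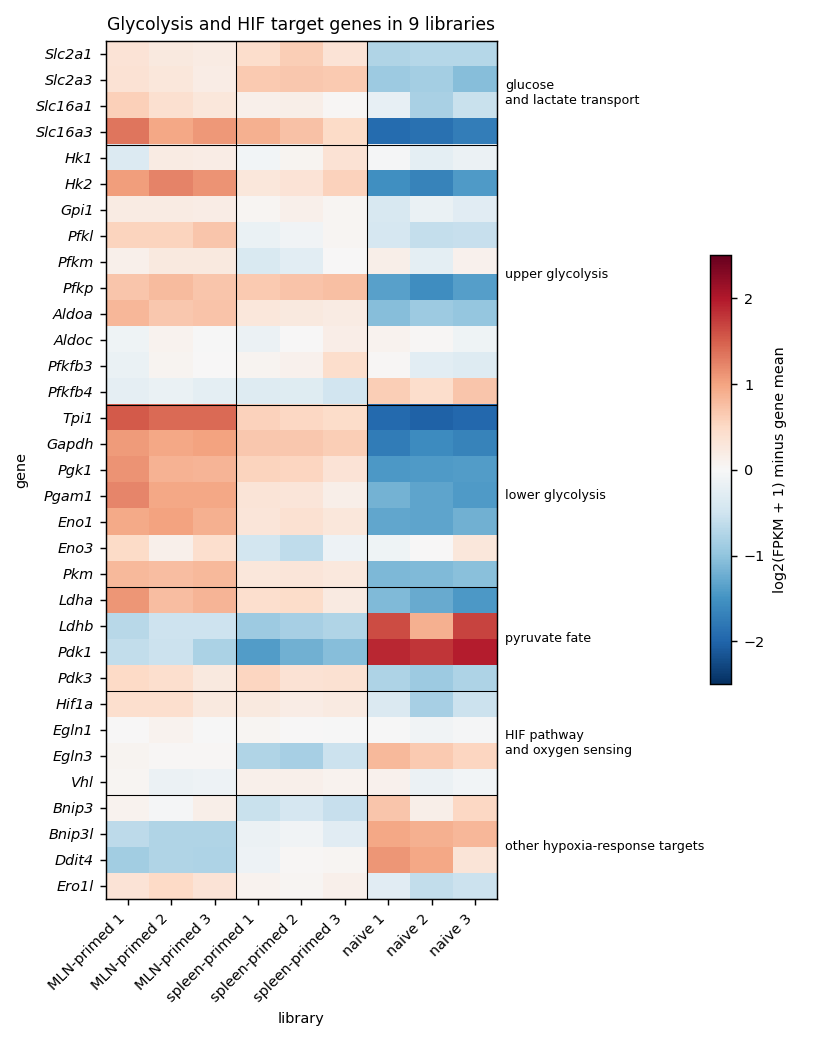
Colour gives log2(FPKM + 1) of each of the 33 genes in each of the 9 libraries minus the gene's mean over the libraries, with genes as rows in order of role and libraries as columns. Genes of lower glycolysis apart from Eno3 are above their mean in both primed groups and deepest in MLN-primed libraries, whereas Ldhb, Pdk1, Bnip3l and Ddit4 are highest in naive libraries.

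Glucose enters T cells through the facilitative transporters Slc2a1 (GLUT1) and Slc2a3 (GLUT3). Slc2a3 was at 29.9, 28.5 and 26.6 FPKM in the MLN-primed, 37.1, 37.6 and 36.9 FPKM in the spleen-primed and 11.9, 12.4 and 10.5 FPKM in the naive libraries. Every primed library lay above every naive one, and every MLN-primed library lay below every spleen-primed one. The log2 change was -0.38 ± 0.08 (adjusted p = 0.00496) between MLN-primed and spleen-primed cells, 1.22 ± 0.08 (adjusted p = 2.25e-07) for MLN-primed against naive cells, and 1.61 ± 0.08 (adjusted p = 3.81e-08) for spleen-primed against naive cells. Slc2a3 was the only member that was lower in MLN-primed than spleen-primed cells while above naive cells in both.

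Slc2a1 was at 29.6, 27.6 and 26.9 FPKM in the MLN-primed, 31.8, 36 and 29.6 FPKM in the spleen-primed and 13.4, 13.7 and 13.7 FPKM in the naive libraries. The primed groups overlapped where MLN-primed 1 and spleen-primed 3 were level, and their difference of -0.20 ± 0.08 (adjusted p = 0.0899) did not pass, although it did without spleen-primed 3 (-0.26, adjusted p = 0.0464) and without both outermost libraries (-0.30, adjusted p = 0.0214). Against naive cells it rose by 0.99 ± 0.08 in MLN-primed and 1.19 ± 0.08 in spleen-primed cells (adjusted p = 1.54e-06 and 4.89e-07). Summed over both transporters, glucose uptake transcripts in MLN-primed cells were 0.809 times those of spleen-primed cells and 2.24 times those of naive cells.

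Lactate leaves through the monocarboxylate transporters Slc16a3 (MCT4), a HIF target of high capacity for export, and Slc16a1 (MCT1), which carries lactate both ways. Slc16a3 was at 13.8, 10.4 and 11.5 FPKM in the MLN-primed, 9.76, 8.69 and 7.16 FPKM in the spleen-primed and 0.547, 0.612 and 0.761 FPKM in the naive libraries. Naive libraries all lay below 1 FPKM, and the means of MLN-primed and spleen-primed cells were 18.6 and 13.3 times the naive mean. Its log2 changes were 2.97 ± 0.13 (adjusted p = 1.49e-08) and 2.53 ± 0.13 (adjusted p = 5.97e-08) against naive cells in MLN-primed and spleen-primed cells. The call between the primed groups, at 0.44 ± 0.13 (adjusted p = 0.0295), was lost under 9 of 18 alternatives, among them the fits without spleen-primed 2 (0.45, adjusted p = 0.0725), spleen-primed 3 (0.33, adjusted p = 0.0905), MLN-primed 1 (0.33, adjusted p = 0.0833) or MLN-primed 3 (0.46, adjusted p = 0.0645). Without both outermost libraries it was 0.22 (adjusted p = 0.153). Slc16a3 overlaps Csnk1d in the annotation, and the use of strand in quantification is not given in the sources used here. Of the 33 members, 15 overlap another annotated gene, and not every overlap is named here.

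Slc16a1 was at 38.7, 33.4 and 30.8 FPKM in the MLN-primed, 27.9, 27.9 and 25.9 FPKM in the spleen-primed and 21.9, 13.9 and 16.9 FPKM in the naive libraries. The 3 groups did not overlap, with MLN-primed libraries highest and naive libraries lowest. Its rise of 0.95 ± 0.14 in MLN-primed and 0.63 ± 0.14 in spleen-primed cells against naive cells passed (adjusted p = 0.000149 and 0.0026), with 0.62 and 0.38 after quantile normalisation. The difference of 0.32 ± 0.14 (adjusted p = 0.125) between MLN-primed and spleen-primed cells did not pass. It passed in 2 of 18 alternatives, with only the libraries compared fitted (adjusted p = 0.0375) and without naive 1 (adjusted p = 0.045). Without both outermost libraries the difference was 0.20 (adjusted p = 0.377).

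In upper glycolysis, where glucose is phosphorylated and split, 4 of 10 genes were higher and 0 lower in MLN-primed than spleen-primed cells (17.3% and 13.1% over all genes). Hexokinases trap glucose in the cell as glucose 6-phosphate. Hk2, the inducible hexokinase, was at 7.22, 8.43 and 7.66 FPKM in the MLN-primed, 3.82, 4.05 and 4.96 FPKM in the spleen-primed and 0.368, 0.244 and 0.499 FPKM in the naive libraries. The groups were fully separated, with MLN-primed libraries highest and every naive library below 1 FPKM. The change was 0.74 ± 0.11 (adjusted p = 0.00113) between MLN-primed and spleen-primed cells, 2.68 ± 0.11 (adjusted p = 1.03e-08) for MLN-primed and 1.94 ± 0.11 (adjusted p = 1.36e-07) for spleen-primed against naive cells. With a pseudocount of 0.1 the changes against naive cells were 4.10 and 3.25.

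Hk1, the constitutive hexokinase, was at 31, 45.7 and 44.7 FPKM in the MLN-primed, 37.2, 41.1 and 50.6 FPKM in the spleen-primed and 38.6, 33.2 and 35.6 FPKM in the naive libraries. MLN-primed 1 lay below all other libraries, and all 3 groups overlapped. None of its comparisons passed, and the difference between MLN-primed and spleen-primed cells, -0.09 ± 0.16, turned positive without MLN-primed 1 (0.08) or without spleen-primed 3 (0.03). Against naive cells the MLN-primed change of 0.15 ± 0.16 passed without MLN-primed 1 (0.33, adjusted p = 0.0299) and without both outermost libraries (0.33, adjusted p = 0.00428), and turned to -0.26 under quantile normalisation (adjusted p = 0.115). The spleen-primed change of 0.25 ± 0.16 passed with the trend with transcript length removed (0.40, adjusted p = 0.0185) and turned to -0.13 under quantile normalisation (adjusted p = 0.431). Hk1 overlaps the antisense gene Hk1os, and without knowledge of strand use the reads of both cannot be told apart.

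Gpi1, the isomerase that makes fructose 6-phosphate, was at 224 ± 2.34 FPKM in MLN-primed, 205 ± 6.3 FPKM in spleen-primed and 161 ± 13.2 FPKM in naive cells (mean ± SD over 3 libraries, the form of every FPKM value given with an error). The log2 change of 0.13 ± 0.07 (adjusted p = 0.202) between MLN-primed and spleen-primed cells did not pass. Against naive cells it was 0.48 ± 0.07 in MLN-primed and 0.35 ± 0.07 in spleen-primed cells (adjusted p = 9.94e-05 and 0.000946), with 0.31 and 0.23 under median-of-ratios scaling. Quantile normalisation turned both calls round, to -0.17 (adjusted p = 0.0242) and -0.22 (adjusted p = 0.00668), so the direction for Gpi1 against naive cells depends on the scaling.

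Phosphofructokinase commits sugar to glycolysis and is built from the products of 3 genes, Pfkl, Pfkm and Pfkp. Pfkl was at 29.8, 30.01 and 33 FPKM in the MLN-primed, 17.7, 18.7 and 20.9 FPKM in the spleen-primed and 14.7, 13 and 13 FPKM in the naive libraries. No groups overlapped, and MLN-primed libraries were highest. It rose by 0.67 ± 0.09 (adjusted p = 0.00047) in MLN-primed over spleen-primed cells, by 1.13 ± 0.09 (adjusted p = 8.08e-07) in MLN-primed over naive cells and by 0.46 ± 0.09 (adjusted p = 0.00067) in spleen-primed over naive cells, the last being 0.29 under quantile normalisation. Pfkp, the most abundant of the 3, was at 91.8, 98.3 and 91.8 FPKM in the MLN-primed, 89.4, 93.4 and 95 FPKM in the spleen-primed and 21.2, 18.5 and 21.1 FPKM in the naive libraries. Primed libraries overlapped each other and lay far above naive ones. The Pfkp gene overlaps Pitrm1 and Gm35730 in the annotation. The difference between MLN-primed and spleen-primed cells was 0.02 ± 0.07, with a 95% interval of -0.14 to 0.18 and an adjusted p of 0.861, while against naive cells Pfkp rose by 2.16 ± 0.07 in MLN-primed and 2.14 ± 0.07 in spleen-primed cells (adjusted p = 2.04e-09 and 2.43e-09).

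Pfkm, the form of muscle, stayed low at 3.53 ± 0.186 FPKM in MLN-primed, 2.43 ± 0.494 FPKM in spleen-primed and 2.96 ± 0.561 FPKM in naive cells. Its difference of 0.41 ± 0.13 (adjusted p = 0.0406) between MLN-primed and spleen-primed cells passed, but the call was lost under 7 of 17 alternatives. These were no filter (0.41, adjusted p = 0.136) and the fits without naive 3 (0.41), MLN-primed 1 (0.45), MLN-primed 2 (0.39), MLN-primed 3 (0.39), spleen-primed 1 (0.32) or spleen-primed 2 (0.39), with adjusted p from 0.051 to 0.137. Pfkm overlaps Senp1 in the annotation. Neither comparison with naive cells passed, at 0.20 ± 0.13 for MLN-primed and -0.21 ± 0.13 for spleen-primed cells. The spleen-primed change passed under median-of-ratios scaling (-0.30, adjusted p = 0.0388), without naive 2 (-0.33, adjusted p = 0.0378), without spleen-primed 3 (-0.32, adjusted p = 0.0473) and without both outermost libraries (-0.32, adjusted p = 0.0419).

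Aldoa, the aldolase that splits fructose bisphosphate, was at 730.2, 658 and 677 FPKM in the MLN-primed, 501, 489 and 476 FPKM in the spleen-primed and 196, 221 and 210.4 FPKM in the naive libraries. MLN-primed libraries were highest and naive lowest, without overlap. Log2 changes were 0.49 ± 0.07 (adjusted p = 0.000731) for MLN-primed against spleen-primed cells, 1.72 ± 0.07 (adjusted p = 7.84e-09) for MLN-primed against naive cells and 1.22 ± 0.07 (adjusted p = 1.17e-07) for spleen-primed against naive cells. Under quantile normalisation those against naive cells were 1.14 and 0.57. Pfkfb3 and Pfkfb4 encode enzymes that make or remove fructose 2,6-bisphosphate, an activator of phosphofructokinase. Pfkfb3 was at 6.48 ± 0.655 FPKM in MLN-primed, 7.83 ± 1.23 FPKM in spleen-primed and 5.74 ± 0.899 FPKM in naive cells, and its difference of -0.23 ± 0.13 (adjusted p = 0.214) between MLN-primed and spleen-primed cells did not pass.

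Against naive cells Pfkfb3 rose in spleen-primed cells by 0.39 ± 0.13 (adjusted p = 0.0209), a call lost under 6 of 18 alternatives, including the fits without naive 2 (0.35), naive 3 (0.32) or spleen-primed 3 (0.28), with adjusted p from 0.0641 to 0.0776. Pfkfb4 was at 0.377, 0.429 and 0.354 FPKM in the MLN-primed, 0.283, 0.315 and 0.164 FPKM in the spleen-primed and 1.47, 1.18 and 1.6 FPKM in the naive libraries. All primed libraries lay below 1 FPKM and all naive ones above. Pfkfb4 fell in MLN-primed and in spleen-primed cells against naive cells, with log2 changes of -0.80 ± 0.09 (adjusted p = 1.5e-05) and -0.95 ± 0.09 (adjusted p = 5.19e-06) and 27.3% and 17.9% of the naive mean left. With a pseudocount of 0.1 these changes were -1.63 and -2.12.

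**Figure D2:**
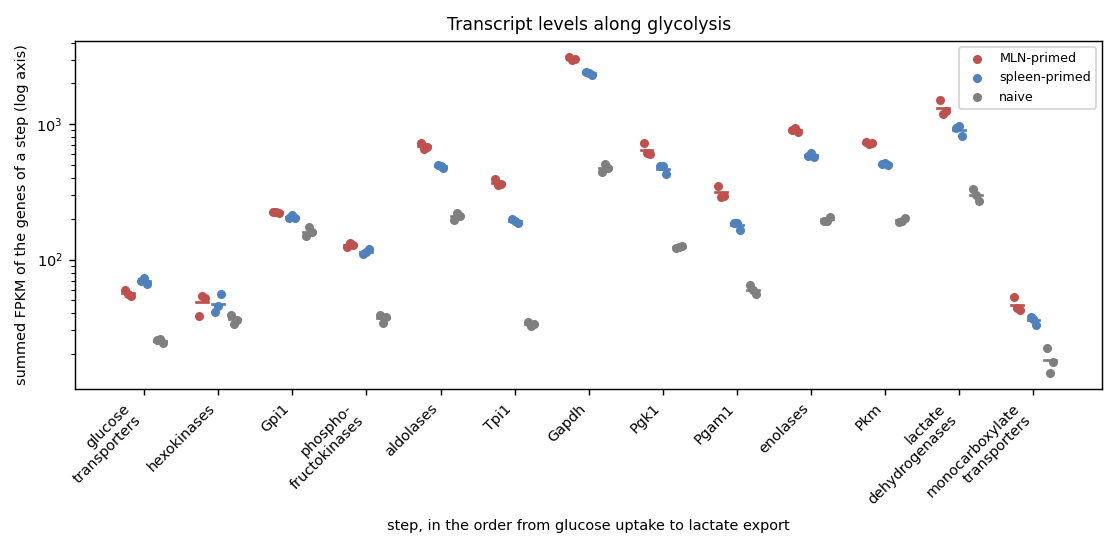
Points give the FPKM of each library summed over the genes of 1 step, on a log axis, with steps ordered from glucose uptake to lactate export and the group mean as a line. Glucose transporters are the step where MLN-primed libraries lie below spleen-primed ones, and from the aldolases to Pkm and the lactate dehydrogenases every MLN-primed library lies above every spleen-primed one.

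In lower glycolysis, which turns triose phosphates into pyruvate and yields ATP, all 7 genes were higher in MLN-primed than spleen-primed cells (17.3% of all genes were), with a median log2 change of 0.63. Tpi1, triose phosphate isomerase, was at 391, 358 and 359 FPKM in the MLN-primed, 199.5, 192 and 185 FPKM in the spleen-primed and 34.3, 32.4 and 33.5 FPKM in the naive libraries. The 3 groups were far apart, and within a group the libraries differed little. The mean of MLN-primed cells was 1.92 times that of spleen-primed and 11 times that of naive cells. The log2 change was 0.94 ± 0.06 (adjusted p = 1.69e-05) between MLN-primed and spleen-primed cells, 3.43 ± 0.06 (adjusted p = 5.09e-11) for MLN-primed and 2.49 ± 0.06 (adjusted p = 3.54e-10) for spleen-primed against naive cells. Tpi1 (gene ID 21991) spans chr6:124810586-124814158 and overlaps Spsb2.

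Gapdh, which oxidises glyceraldehyde 3-phosphate and is often used as a reference gene, was the most abundant member. It was at 3158, 2966 and 3023 FPKM in the MLN-primed, 2411, 2394 and 2324 FPKM in the spleen-primed and 447, 508 and 473 FPKM in the naive libraries. All 3 groups were separated, MLN-primed libraries being highest. Gapdh rose by 0.36 ± 0.07 (adjusted p = 0.0043) in MLN-primed over spleen-primed cells and by 2.68 ± 0.07 (adjusted p = 4.56e-10) and 2.32 ± 0.07 (adjusted p = 1.37e-09) over naive cells in MLN-primed and spleen-primed cells. Pgk1, phosphoglycerate kinase, was at 729, 612 and 602 FPKM in the MLN-primed, 493, 487 and 426 FPKM in the spleen-primed and 123, 125 and 127 FPKM in the naive libraries. MLN-primed 1 was highest and spleen-primed 3 lowest among primed libraries, but the groups did not overlap, and the difference of 0.46 ± 0.09 (adjusted p = 0.00365) between MLN-primed and spleen-primed cells passed in every alternative.

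Against naive cells Pgk1 rose by 2.36 ± 0.09 (adjusted p = 5.08e-09) in MLN-primed and 1.90 ± 0.09 (adjusted p = 2.92e-08) in spleen-primed cells, the spleen-primed change being 1.25 under quantile normalisation. Pgam1, phosphoglycerate mutase, was at 352, 292 and 295 FPKM in the MLN-primed, 187, 186 and 166 FPKM in the spleen-primed and 65.1, 59.2 and 55.3 FPKM in the naive libraries. MLN-primed 1 again stood above the other libraries of its group, and no groups overlapped. The change was 0.80 ± 0.09 (adjusted p = 0.000308) for MLN-primed against spleen-primed cells, and 2.37 ± 0.09 for MLN-primed and 1.57 ± 0.09 for spleen-primed against naive cells (adjusted p = 7.31e-09 and 1.82e-07). Tpi1 and Pgam1 had the largest ratios of the abundant lower glycolysis genes between the primed groups, with MLN-primed means 1.92 and 1.74 times the spleen-primed means, against 1.28 for Gapdh and 1.38 for Pgk1.

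Enolase makes phosphoenolpyruvate. Eno1, the form of most tissues, was at 902, 939 and 871 FPKM in the MLN-primed, 575, 608 and 568 FPKM in the spleen-primed and 189.8, 188 and 201 FPKM in the naive libraries. Groups were separated in the order MLN-primed, spleen-primed, naive from high to low. Its log2 changes were 0.63 ± 0.06 (adjusted p = 0.000118) between MLN-primed and spleen-primed cells, 2.22 ± 0.06 (adjusted p = 7.2e-10) for MLN-primed against naive and 1.59 ± 0.06 (adjusted p = 8.59e-09) for spleen-primed against naive cells, with 0.96 for the last under quantile normalisation. Pkm, the pyruvate kinase that ends the chain, was at 734, 713 and 732 FPKM in the MLN-primed, 511, 514 and 503 FPKM in the spleen-primed and 191, 194 and 203 FPKM in the naive libraries. The libraries of a group lay close together and the groups far apart. Pkm rose by 0.51 ± 0.06 (adjusted p = 0.000195) in MLN-primed over spleen-primed cells, and by 1.89 ± 0.06 in MLN-primed and 1.38 ± 0.06 in spleen-primed over naive cells (adjusted p = 9.98e-10 and 1.04e-08, the spleen-primed change being 0.73 under quantile normalisation). The table gives 1 value per gene, so the splice forms of Pkm are not told apart.

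Eno3, the enolase of muscle, took another path at a low level. It was at 6.82, 5.1 and 6.47 FPKM in the MLN-primed, 3.06, 2.62 and 4.1 FPKM in the spleen-primed and 4.22, 4.64 and 5.82 FPKM in the naive libraries. Spleen-primed libraries lay below all naive ones, and MLN-primed libraries overlapped with naive ones. MLN-primed cells exceeded spleen-primed cells by 0.75 ± 0.16 (adjusted p = 0.00564). Against naive cells the MLN-primed change of 0.28 ± 0.16 (adjusted p = 0.129) did not pass, and spleen-primed cells were lower, at -0.47 ± 0.16 (adjusted p = 0.0183). That fall was no longer called with no filter (adjusted p = 0.0735) or without naive 3 (-0.36), spleen-primed 1 (-0.45) or spleen-primed 2 (-0.36), with adjusted p from 0.0523 to 0.077. Eno3 overlaps Pfn1 in the annotation. Gapdh, Eno1, Pgk1 and other glycolytic genes have processed pseudogenes in the mouse genome, and how shared reads were assigned is not given, which leaves their levels uncertain to that extent.

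**Figure D3:**
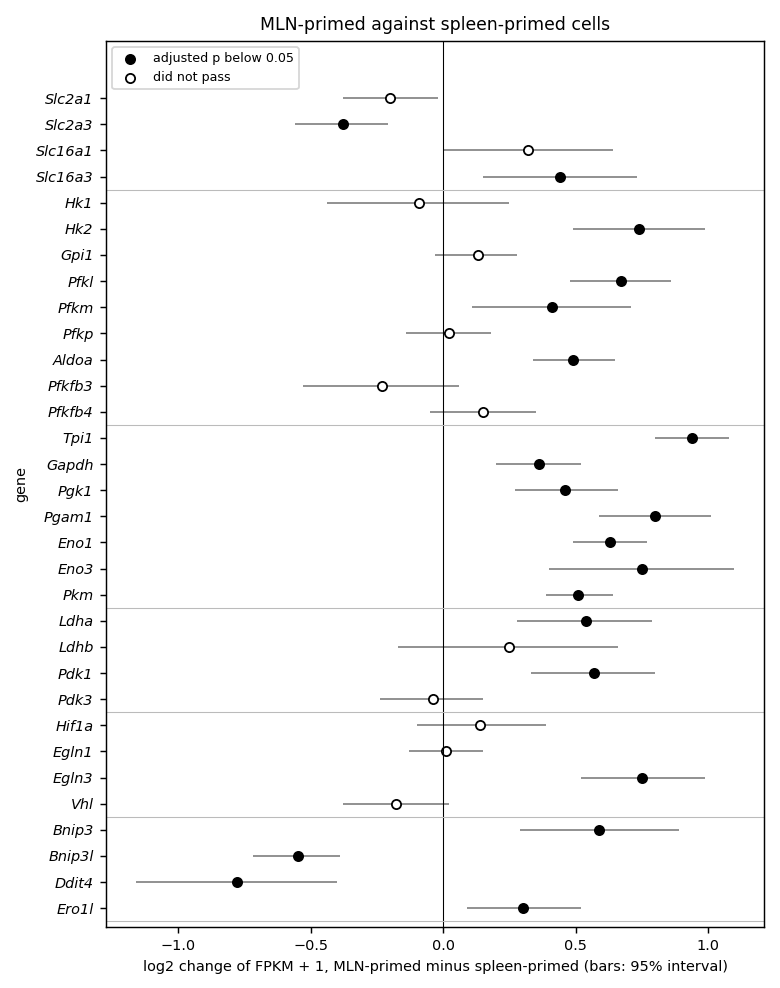
Points give the log2 change of FPKM + 1 in MLN-primed minus spleen-primed cells for the 32 tested genes with 95% intervals, filled where the limma adjusted p was below 0.05, with lines parting the roles. All 7 lower glycolysis genes lie right of 0 and are filled, and Slc2a3, Bnip3l and Ddit4 are the filled points left of 0.

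Pyruvate is either reduced to lactate or passed to the mitochondria. Ldha, the lactate dehydrogenase subunit that favours lactate, was at 1502, 1195 and 1257 FPKM in the MLN-primed, 941, 963 and 815 FPKM in the spleen-primed and 325, 293 and 259 FPKM in the naive libraries. MLN-primed 1 was the highest library and spleen-primed 3 the lowest primed one, with no overlap between groups. The change was 0.54 ± 0.11 (adjusted p = 0.00648) in MLN-primed against spleen-primed cells, and 2.17 ± 0.11 in MLN-primed and 1.63 ± 0.11 in spleen-primed against naive cells (adjusted p = 5.7e-08 and 5.95e-07, the spleen-primed change being 1.01 under quantile normalisation). Ldhb, the subunit that favours pyruvate, ran the other way. It was at 1.21, 1.48 and 1.48 FPKM in the MLN-primed, 0.914, 1.003 and 1.13 FPKM in the spleen-primed and 10.1, 5.66 and 10.5 FPKM in the naive libraries, so that primed libraries held 15.9% in MLN-primed and 11.6% in spleen-primed cells of the naive mean.

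The log2 change of Ldhb against naive cells was -1.99 ± 0.18 (adjusted p = 3.91e-06) in MLN-primed and -2.24 ± 0.18 (adjusted p = 2.01e-06) in spleen-primed cells, and that between MLN-primed and spleen-primed cells, 0.25 ± 0.18 (adjusted p = 0.359), did not pass. Naive 2, at 5.66 FPKM, stood below both other naive libraries and above all primed ones. Pyruvate dehydrogenase kinases inhibit pyruvate dehydrogenase, which uses pyruvate inside the mitochondria, and Pdk1 is a HIF target. Pdk1 was at 7.41, 7.84 and 6.42 FPKM in the MLN-primed, 3.93, 4.6 and 5.15 FPKM in the spleen-primed and 46.4, 43.4 and 49.7 FPKM in the naive libraries. Naive libraries stood far above all primed ones, and MLN-primed libraries lay above spleen-primed ones.

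Pdk1 fell by 2.53 ± 0.11 on the log2 scale in MLN-primed cells and by 3.10 ± 0.11 in spleen-primed cells against naive cells (adjusted p = 1.06e-08 and 3.12e-09), to 15.5% and 9.81% of the naive mean. It was higher by 0.57 ± 0.11 (adjusted p = 0.00324) in MLN-primed than spleen-primed cells. Pdk3, another kinase of the same family, was at 35.3 ± 3.29 FPKM in MLN-primed, 36.4 ± 2.69 FPKM in spleen-primed and 14.8 ± 0.7999 FPKM in naive cells. It rose against naive cells by 1.2 ± 0.09 in MLN-primed and 1.24 ± 0.09 in spleen-primed cells (adjusted p = 6.72e-07 and 6.55e-07), with a difference of -0.04 ± 0.09 between MLN-primed and spleen-primed cells that did not pass (95% interval -0.24 to 0.15).

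Hif1a encodes the alpha subunit of HIF-1, whose protein is controlled mainly by its stability, which RNA does not show. Its transcript was at 42.8, 42.4 and 37.4 FPKM in the MLN-primed, 37.3, 35.9 and 37.2 FPKM in the spleen-primed and 24.5, 17.4 and 21.4 FPKM in the naive libraries. Primed libraries lay above naive ones, and MLN-primed libraries lay just above spleen-primed ones. Against naive cells Hif1a rose by 0.93 ± 0.11 (adjusted p = 2.57e-05) in MLN-primed and 0.79 ± 0.11 (adjusted p = 0.000102) in spleen-primed cells, with 0.57 and 0.49 under quantile normalisation. The difference of 0.14 ± 0.11 between MLN-primed and spleen-primed cells did not pass (95% interval -0.10 to 0.39, adjusted p = 0.373).

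Of the prolyl hydroxylases that mark HIF for destruction, Egln1 (PHD2) was at 25.6 ± 0.889 FPKM in MLN-primed, 25.3 ± 0.499 FPKM in spleen-primed and 24.4 ± 0.823 FPKM in naive cells. None of its 3 comparisons passed, and the difference between MLN-primed and spleen-primed cells was 0.01 ± 0.06 with an interval of -0.13 to 0.15. Under quantile normalisation Egln1 turned to -0.29 in MLN-primed and -0.25 in spleen-primed against naive cells (adjusted p = 0.00246 and 0.00551), whereas with the trend with transcript length removed it was higher, at 0.17 in MLN-primed and 0.16 in spleen-primed cells (adjusted p = 0.0231 and 0.0331). Its direction against naive cells thus depends on the processing. Egln3 (PHD3), which is itself a HIF target, was at 2.38, 2.31 and 2.3 FPKM in the MLN-primed, 0.907, 0.815 and 1.22 FPKM in the spleen-primed and 4.71, 4.06 and 3.72 FPKM in the naive libraries. The 3 groups were separated, naive libraries being highest and spleen-primed ones lowest, with 2 spleen-primed libraries below 1 FPKM.

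Egln3 was 2.37 times as high in MLN-primed as in spleen-primed cells, the largest such ratio of the 33 members, with a log2 change of 0.75 ± 0.10 (adjusted p = 0.000678) that was 1.19 with a pseudocount of 0.1. Egln3 fell against naive cells, with log2 changes of -0.63 ± 0.10 (adjusted p = 0.000269) in MLN-primed and -1.38 ± 0.10 (adjusted p = 9.69e-07) in spleen-primed cells. Vhl, the part of the ubiquitin ligase that binds hydroxylated HIF, was at 10.4 ± 0.847 FPKM in MLN-primed, 11.9 ± 0.158 FPKM in spleen-primed and 10.7 ± 1.06 FPKM in naive cells. None of its comparisons passed, with -0.18 ± 0.09 (adjusted p = 0.159) between MLN-primed and spleen-primed cells, although the change of 0.14 ± 0.09 in spleen-primed over naive cells did without naive 1 (0.22, adjusted p = 0.0496).

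The other 4 hypoxia-response genes split. Bnip3 and Bnip3l encode mitochondrial outer membrane proteins that act as receptors for mitophagy. Bnip3 was at 2.31, 2.04 and 2.41 FPKM in the MLN-primed, 1.11, 1.31 and 1.07 FPKM in the spleen-primed and 3.99, 2.42 and 3.44 FPKM in the naive libraries. All groups were separated, with naive libraries highest and spleen-primed lowest. The change between MLN-primed and spleen-primed cells was 0.59 ± 0.13 (adjusted p = 0.00842), and 0.90 with a pseudocount of 0.1. Bnip3 fell against naive cells in spleen-primed cells, with a log2 change of -0.97 ± 0.13 (adjusted p = 8.16e-05). In MLN-primed cells the change was -0.38 ± 0.13 (adjusted p = 0.023), a call lost under 5 of 17 alternatives, among them the fits without naive 1 (-0.26), naive 3 (-0.35) or MLN-primed 2 (-0.33), with adjusted p from 0.0731 to 0.0924.

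Bnip3l was far more abundant, at 22.6, 20.9 and 20.9 FPKM in the MLN-primed, 32.5, 33.9 and 29.5 FPKM in the spleen-primed and 71.3, 67.5 and 64.6 FPKM in the naive libraries. It ran opposite to Bnip3 between the primed groups, every MLN-primed library lying below every spleen-primed one, and naive libraries were highest. The changes were -0.55 ± 0.07 (adjusted p = 0.000598) for MLN-primed against spleen-primed, -1.61 ± 0.07 (adjusted p = 2.08e-08) for MLN-primed against naive and -1.06 ± 0.07 (adjusted p = 5.66e-07) for spleen-primed against naive cells. Bnip3l is also abundant in maturing red cells. Markers of red cells and platelets summed to 0.346 to 97.4 FPKM in MLN-primed, 4.84 to 51.9 FPKM in spleen-primed and 14.2 to 88.2 FPKM in naive libraries, with Slc4a1, Ppbp and Gp9 under 0.1 FPKM everywhere. Their part in the values of Bnip3l was not tested.

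Ddit4 (REDD1), an inhibitor of mTORC1 induced by low oxygen and other stresses, was at 11.6, 12.7 and 12.5 FPKM in the MLN-primed, 20.03, 22.5 and 22.8 FPKM in the spleen-primed and 48.2, 43.9 and 27.8 FPKM in the naive libraries. MLN-primed libraries were lowest and naive ones highest, with no overlap, though naive 3 was well below both other naive libraries. The log2 change was -0.78 ± 0.17 (adjusted p = 0.00716) in MLN-primed against spleen-primed cells, the lowest of the members there, and the call was lost only with no filter (adjusted p = 0.0501). Against naive cells the change was -1.59 ± 0.17 (adjusted p = 1.12e-05) in MLN-primed and -0.81 ± 0.17 (adjusted p = 0.00151) in spleen-primed cells. Ero1l, named Ero1a in RefSeq, encodes an oxidase that drives disulfide formation in the endoplasmic reticulum and is a HIF target.

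Ero1l was at 20.5, 22.8 and 20.4 FPKM in the MLN-primed, 17, 16.6 and 17.4 FPKM in the spleen-primed and 13, 10.1 and 10.7 FPKM in the naive libraries. Groups did not overlap, and MLN-primed libraries were highest. It rose by 0.87 ± 0.10 in MLN-primed and 0.56 ± 0.10 in spleen-primed over naive cells (adjusted p = 1.42e-05 and 0.000374). The call between MLN-primed and spleen-primed cells, 0.30 ± 0.10 (adjusted p = 0.0372), was lost under 9 of 18 alternatives. It did not hold without any 1 of the 6 primed libraries (0.25 to 0.33, adjusted p from 0.0516 to 0.129), under median-of-ratios scaling (0.26), under quantile normalisation (0.24) or with no filter.

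**Figure D4:**
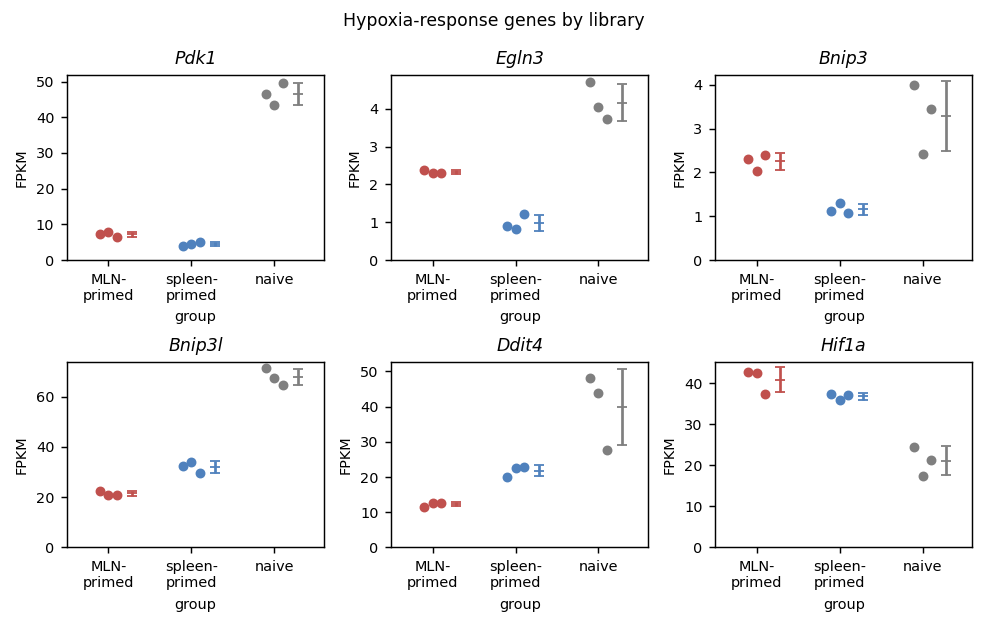
Points give the FPKM of 6 genes of the hypoxia response in each library, in panels with their own axes from 0, with the group mean ± SD (n = 3) beside them. Pdk1, Egln3 and Bnip3 are highest in naive and lowest in spleen-primed libraries, Bnip3l and Ddit4 are lowest in MLN-primed libraries, and Hif1a is lowest in naive ones.

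Since FPKM are per length, the share of each gene within a family of isozymes or paralogues can be described, with no test. Hk2 made up 18.9, 15.6 and 14.6% of both hexokinases in MLN-primed, 9.31, 8.98 and 8.93% in spleen-primed and 0.945, 0.728 and 1.38% in naive libraries. The order of the groups held in every library. Among phosphofructokinases, Pfkp averaged 73.1 ± 1.54% in MLN-primed, 81.2 ± 1.08% in spleen-primed and 55.1 ± 1.23% in naive cells, Pfkl 24.1 ± 1.5%, 16.7 ± 0.740% and 36.9 ± 1.82% in the same order, and Pfkm the rest. Pdk1 held 17.0 ± 0.736% of the sum of Pdk1 and Pdk3 in MLN-primed, 11.2 ± 1.91% in spleen-primed and 75.9 ± 0.610% in naive cells, so that the more abundant kinase was Pdk3 in both primed groups and Pdk1 in naive cells.

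Egln3 held 8.35 ± 0.335% of the sum of Egln1 and Egln3 in MLN-primed, 3.73 ± 0.829% in spleen-primed and 14.6 ± 1.37% in naive cells. Bnip3 held 9.49 ± 0.733% of the sum with Bnip3l in MLN-primed, 3.51 ± 0.204% in spleen-primed and 4.61 ± 1.002% in naive cells, where spleen-primed and naive libraries overlapped. Slc16a3 held 25.7 ± 1.76% of monocarboxylate transporters in MLN-primed, 23.8 ± 2.14% in spleen-primed and 3.66 ± 1.05% in naive cells, and the primed groups overlapped. Ldhb held 0.107 ± 0.0233%, 0.113 ± 0.0222% and 2.95 ± 1.01% of lactate dehydrogenase transcripts in MLN-primed, spleen-primed and naive cells.

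**Figure D5:**
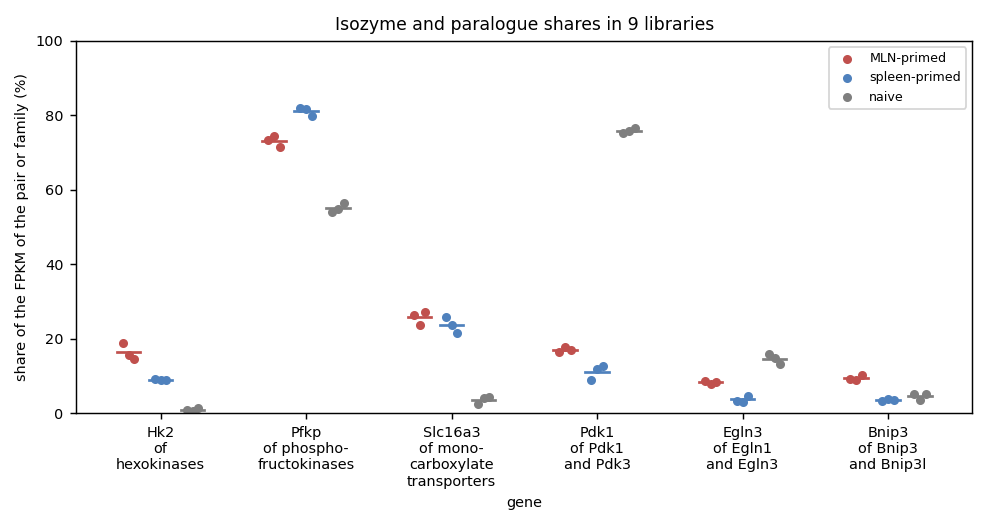
Points give, for each library, the share in percent that 1 gene holds of the FPKM of its family or pair, with the group mean as a line. MLN-primed libraries lie above spleen-primed ones for Hk2, Pdk1, Egln3 and Bnip3 and below them for Pfkp, and naive libraries stand alone for Pdk1 at 75.3 to 76.5%.

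Other genes of both pathways were described from lists of related genes. Of 45 other genes of glucose handling, 17 were tested, and 3 were higher and 2 lower in MLN-primed than spleen-primed cells, with a median change of -0.02. Over all tested genes 17.3% were higher and 13.1% lower, so these shares are near the background. The higher ones were G6pc3, a glucose 6-phosphatase (0.38 ± 0.09, adjusted p = 0.0117), Adpgk, an ADP-dependent glucokinase (0.36 ± 0.08, adjusted p = 0.01), and the gene listed as Pgm2 (gene ID 72157, named Pgm1 in RefSeq), a phosphoglucomutase that links glycogen to glycolysis (0.28 ± 0.08, adjusted p = 0.0187). Txnip, an arrestin that lowers glucose uptake, was at 28.7 ± 0.485 FPKM in MLN-primed, 74.1 ± 5.84 FPKM in spleen-primed and 314 ± 36.8 FPKM in naive cells. It was lower in MLN-primed than spleen-primed cells (-1.33 ± 0.09, adjusted p = 1.88e-05) and lower in both than in naive cells (-3.40 ± 0.09 and -2.07 ± 0.09, adjusted p = 4.61e-10 and 1.82e-08).

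Against naive cells, 8 of these genes were higher and 6 lower in MLN-primed cells, and 9 and 6 in spleen-primed cells. Over all tested genes 45.5% were higher and 33.2% lower in MLN-primed cells, and 43.1% and 32.7% in spleen-primed cells, and no result about the list is read from its counts. Pdk2, a further pyruvate dehydrogenase kinase, was at 0.122 ± 0.0729 FPKM in MLN-primed, 0.177 ± 0.0664 FPKM in spleen-primed and 8.56 ± 0.656 FPKM in naive cells (-3.09 ± 0.09 and -3.02 ± 0.09 against naive cells, adjusted p = 8.76e-10 and 1.11e-09). It met the filter only through the naive libraries, so these differences follow in part from the filter. The gene listed as Pgm1 (gene ID 66681, named Pgm2 in RefSeq), a phosphopentomutase, rose by 1.43 ± 0.10 in MLN-primed and 1.48 ± 0.10 in spleen-primed over naive cells (adjusted p = 3.84e-07 and 3.85e-07). Mlxip, a glucose-sensing transcription factor, fell by 0.95 ± 0.24 in MLN-primed cells and by 1.09 ± 0.24 in spleen-primed against naive cells (adjusted p = 0.00446 and 0.00205).

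Of 40 other genes of the hypoxia pathway, 30 were tested, and 9 were higher and 2 lower in MLN-primed than spleen-primed cells, with a median change of 0.04, beside 17.3% higher and 13.1% lower over all tested genes. Tfrc, the transferrin receptor, was at 39.5 ± 4.67 FPKM in MLN-primed, 18.1 ± 1.18 FPKM in spleen-primed and 6.55 ± 0.472 FPKM in naive cells (1.08 ± 0.10 between the primed groups, adjusted p = 7.79e-05). Mif, a secreted cytokine, was at 792 ± 61.4 FPKM in MLN-primed cells, against 471 ± 18.8 FPKM in spleen-primed cells (0.75 ± 0.07, adjusted p = 9.1e-05). Ankrd37, a known HIF target, was higher by 0.55 ± 0.12 (adjusted p = 0.00755).

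Against naive cells, 18 genes of that list were higher and 7 lower in MLN-primed cells, and 17 and 7 in spleen-primed cells, beside the shares over all tested genes given above for these comparisons. Bhlhe40, a transcriptional repressor of activated T cells, was at 19.2 ± 0.470 FPKM in MLN-primed, 27.0 ± 1.87 FPKM in spleen-primed and 0.824 ± 0.480 FPKM in naive cells (3.50 ± 0.16 and 3.97 ± 0.16 against naive cells, adjusted p = 2.06e-08 and 1.05e-08). Only 1 naive library had 1 FPKM or more of Bhlhe40, which met the filter through the primed groups, so these differences follow in part from the filter. Plin2, which coats lipid droplets, rose by 2.5 ± 0.12 in MLN-primed and 1.97 ± 0.12 in spleen-primed cells (adjusted p = 3.69e-08 and 2.81e-07). Among those that fell, the histone demethylase gene Kdm3a, a HIF target, was at 8.41 ± 1.28 FPKM in MLN-primed, 8.41 ± 1.47 FPKM in spleen-primed and 21.3 ± 0.291 FPKM in naive cells (-1.25 ± 0.13 in both, adjusted p = 7.63e-06 and 9.04e-06).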

How the data were processed

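TruSeq Stranded mRNA libraries were made from RNA taken with an RNeasy Plus Micro kit, per the labels' protocols. The authors made the deposited FPKM with TopHat and Cufflinks on mm10, per the submitters' processing notes, and their versions, filters, use of strand and handling of reads with several matches were not given in the sources used here. A second deposited table was identical and not used, and 131 rows without a symbol, holding 0.0325 to 0.0708% of the FPKM of a library, were left out of the 24067 rows. FPKM were used as deposited and no depth or counting error can be recovered from them. One model over 9 libraries was fitted with limma 3.58.1 (limma-trend, R 4.3.3) on log2(FPKM + 1), two-sided, at an adjusted p of 0.05, and was tested on simulated data. Summaries and figures used Python 3.11.15, numpy 2.4.6, pandas 2.3.3 and matplotlib 3.10.9.

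The members, the role groups, the lists of other genes and markers and the rules below were chosen with earlier results of these data known. All members are named. Of other genes, at most 3 called genes per list, comparison and direction could be named, those with the largest change among genes of at least 5 FPKM in the higher group, and not every one is printed. Promoter windows and gene positions are from RefSeq (GRCm38.p6). Protein sequences were not used here. One further marker gene is not reported here.

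Library numbers come from the titles. Deviations from group means of equally numbered libraries correlated at 0.16, 0.116 and 0.236 across genes between spleen-primed and naive cells. Between MLN-primed and spleen-primed cells the values were 0.645, -0.24 and 0.485, and between MLN-primed and naive cells 0.145, -0.241 and 0.116. No label used here says what a number shares, and differently numbered libraries were not correlated, so pairing is not established. The main model treats the libraries as unpaired. Alternatives were quantile normalisation, median-of-ratios scaling, a filter at 5 FPKM in 3 libraries or none at all, 0.1 as the pseudocount, only the libraries compared, the replicate block, removal of the trend with transcript length (known for 99% of tested genes), each library left out, and both MLN-primed 1 and spleen-primed 3 left out.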

Additional observations from a re-analysis of the deposited data

Results flagged for a closer look

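Eno3 had primed groups on opposite sides of the naive mean. It averaged 6.13 ± 0.909 FPKM in MLN-primed, 3.26 ± 0.761 FPKM in spleen-primed and 4.9 ± 0.829 FPKM in naive cells (SD, n = 3), and the difference between MLN-primed and spleen-primed cells, itself the tested contrast, was 0.75 on the log2(FPKM + 1) scale (limma, adjusted p = 0.00564). The MLN-primed change against naive cells did not pass. Eno3 overlaps Pfn1 in the annotation, and the part of that overlap in the value was not tested. With 3 libraries in a group, single libraries were not screened as outliers.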

How the results depend on the processing

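Of 96 tests (32 members in 3 comparisons), 74 passed, and 65 of these calls kept their direction and passed in every alternative that gave a value. Counts of members moved by over 1.5 times only with a filter of 5 FPKM in 3 libraries, where fewer members were tested: 4 lower in MLN-primed and 5 lower in spleen-primed against naive cells, in place of 7 and 8. Leaving out single libraries gave 14 to 18 higher and 3 to 4 lower in MLN-primed against spleen-primed cells, 19 to 20 and 5 to 7 in MLN-primed against naive cells, and 19 to 21 and 6 to 9 in spleen-primed against naive cells. Over all genes, 9820 to 10149 were tested in these fits. In the same order of comparisons, 1254 to 1790 were higher and 869 to 1376 lower, 4376 to 4632 and 2822 to 3438, and 4143 to 4425 and 2709 to 3455. Without spleen-primed 3 and MLN-primed 1 together the counts were 16 and 4, 20 and 7, and 19 and 9 in these comparisons. Of all 10079 genes tested there, 2488 were higher and 1356 lower in MLN-primed against spleen-primed cells, beside 1760 and 1333 of 10185 in the main fit. The counts over all genes against naive cells were 4703 and 3337 for MLN-primed and 4310 and 3628 for spleen-primed cells. With the replicate block the members' counts were 17 and 3, 19 and 7, and 20 and 8, and no member's call changed. Over all 10185 genes the block gave 1942 higher and 1440 lower, 4717 and 3490, and 4480 and 3448 in the same order.

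Called directions turned only for Gpi1 under quantile normalisation, at -0.17 in MLN-primed and -0.22 in spleen-primed against naive cells. The other turns concern changes that had not passed. Under quantile normalisation these were Hk1 against naive cells at -0.26 (MLN-primed) and -0.13 (spleen-primed), Egln1 against naive cells at -0.29 and -0.25 in the same order, and Pfkp and Egln1 between MLN-primed and spleen-primed cells at -0.03 each. Under median-of-ratios scaling they were Egln1 at -0.10 in MLN-primed and -0.07 in spleen-primed against naive cells, Hk1 at -0.01 in MLN-primed against naive cells, and Pfkp and Egln1 between the primed groups at -0.03 each. With single libraries left out, changes between MLN-primed and spleen-primed cells ranged from -0.19 to 0.08 for Hk1 (0.20 without spleen-primed 3 and MLN-primed 1), -0.01 to 0.04 for Pfkp, -0.10 to 0.03 for Pdk3 and -0.01 to 0.03 for Egln1, and Vhl ranged from -0.10 to 0.03 in MLN-primed against naive cells. The cause of these turns was not tested. FPKM keep no read numbers, so the precision of low genes such as Pfkm, Egln3 and Bnip3 is known only from 3 libraries a group.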
